A study of Rattus norvegicus with 12 samples.

Results

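The proteasome genes of H9C2 cells are described here: the genes of the rat count table whose symbol begins with Psma, Psmb, Psmc, Psmd, Psme, Psmf or Psmg followed by a number, without a pseudogene suffix. The rule found 49 genes among the 16074 gene IDs of the table, on 50 rows, because Psmb10 was listed on a pair of rows. Of these, 46 encode subunits, regulators or assembly factors of the proteasome, and 3 match the rule by name and were kept apart (Psmb6l1, Psmc3ip and Psme3ip1). Psme2 and Psmg2 were not analysed here. How reads were split between Psmb6 and its copy Psmb6l1, or between Psma6 or Psme1 and their pseudogenes, is not given in the sources used here. After a filter on low counts 47 of the 49 entered the test. Psma8, a testis variant of the outer ring, did not pass the filter, with counts of 0, 0, 0 and 1 in the control libraries, 0, 0, 0 and 2 after hypoxia and reoxygenation (H/R), and 4, 0, 1 and 0 with LITAF. Psmb10 was kept out of the main test because its rows gave different values for the control libraries.

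The proteasome degrades proteins that carry ubiquitin chains. Its 20S core is a barrel in which outer rings of alpha subunits (Psma) enclose inner rings of beta subunits (Psmb), and the proteolytic sites lie in Psmb6, Psmb7 and Psmb5. In immune cells, and in many other cells after interferon, Psmb9, Psmb10 and Psmb8 take the places of those subunits in newly assembled cores and form the immunoproteasome, which changes the peptides made for MHC class I. The 19S regulator caps the barrel: its ATPases (Psmc) unfold the substrate and its other subunits (Psmd) bind ubiquitin and remove it. Other activators (Psme) open the barrel without ubiquitin, Psmf1 inhibits it, and Psmg proteins and some Psmd proteins are chaperones of assembly. When proteasome activity falls, the transcription factor NRF1 (Nfe2l1) is known to raise the subunit genes together through antioxidant response elements in their promoters.

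H9C2 is an established line derived from embryonic rat heart, labelled as cardiomyoblasts of wild-type genotype, and bulk RNA was sequenced from 12 libraries, 4 in each of 3 groups. Control cells were kept at normal oxygen, with no lentivirus. The H/R group carried a lentiviral vector without insert and was kept at 1% oxygen for 8 h and then back at normal oxygen for 2 h. The LITAF group carried a lentiviral vector overexpressing LITAF, a membrane protein of endosomes and lysosomes, and had the same hypoxia and reoxygenation. All cells are of 1 line, the promoter in the vector is not stated, and the control differs from the H/R group by vector and by H/R, which cannot be told apart. The labels call the replicates biological without naming separate cultures, so the p-values cover only the differences among the libraries at hand.

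Total counts were 19.2 to 20.7 M in the control libraries, 16.9 to 18.1 M in the H/R libraries and 17.2 to 18.4 M in the LITAF libraries. Values are counts per M reads after TMM scaling (CPM), and levels of different genes are not compared because transcript lengths were not used. Litaf ran from 456 to 491 CPM in control, 549 to 619 in H/R and 2008 to 2691 in the LITAF libraries. Muscle and fibroblast markers were mixed in the control libraries. The myogenic markers Myod1 (185 to 350.3 CPM) and Myog were present in all of them, while Myf5 was at 0. Of the heart muscle markers, Tnnt2 had 168 to 404 CPM, Gata4 28.9 to 36.8 and Nkx2-5 4.89 to 8.90. Tnni3 was at 0 in every control and H/R library. Nppa was at 0 in every control library, and Myh6, Ryr2 and Nppb were at most 0.412, 0.255 and 0.051 CPM there. Of the fibroblast markers, Col1a1 had 28590 to 38680 CPM, Col1a2 24180 to 31290 and Thy1 228.5 to 267. Dcn was at 0 in every library, and Pdgfra was at most 0.389 CPM in control. Estimated counts that were not whole numbers made up 2.85 to 3.40% of the control columns and 11.4 to 12.6% of the other 8, so the deposited values may not have been made alike, and this too runs with the comparison against control.

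Promoter sequence is shown for 5 of the genes on which the comparisons turn: the 150 bases before the transcription start of the constitutive catalytic genes Psmb5 and Psmb6, of the immunoproteasome genes Psmb8 and Psmb10, and of Psmd4, the 19S gene with the largest rise. They are RefSeq promoters of the rat build GRCr8, on the gene's own strand, and capitals mark a match to the antioxidant response element TGACNNNGC (Psmb5 and Psmb6), to the interferon-stimulated response element, a pair of GAAA with any 2 bases between, on either strand (Psmb8 and Psmb10) or to the CCAAT box on the other strand (Psmd4).
Psmb5, chr15:32047380-32047529, minus strand: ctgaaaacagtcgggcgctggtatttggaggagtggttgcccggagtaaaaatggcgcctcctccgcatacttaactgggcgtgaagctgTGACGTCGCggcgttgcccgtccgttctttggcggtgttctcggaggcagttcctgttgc
Psmb6, chr10:55737738-55737887, plus strand: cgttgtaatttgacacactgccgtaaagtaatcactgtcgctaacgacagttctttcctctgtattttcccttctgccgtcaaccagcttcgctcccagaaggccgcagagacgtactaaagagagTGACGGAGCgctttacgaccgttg
Psmb8, chr20:4657026-4657181, minus strand, with the first 6 bases of the transcript: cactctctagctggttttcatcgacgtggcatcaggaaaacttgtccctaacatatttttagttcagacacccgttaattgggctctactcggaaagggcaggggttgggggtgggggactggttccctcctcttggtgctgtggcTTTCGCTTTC
Psmb10, chr19:50743293-50743442, minus strand: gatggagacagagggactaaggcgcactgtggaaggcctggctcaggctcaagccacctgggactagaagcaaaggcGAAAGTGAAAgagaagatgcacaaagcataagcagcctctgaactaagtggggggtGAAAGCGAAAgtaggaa
Psmd4, chr2:185297202-185297351, minus strand: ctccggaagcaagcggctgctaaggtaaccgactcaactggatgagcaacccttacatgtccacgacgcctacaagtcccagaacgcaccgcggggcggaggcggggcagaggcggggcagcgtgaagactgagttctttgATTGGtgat
The matches began at position -60 from the start in Psmb5, -24 in Psmb6, -4 in Psmb8, -73 and -17 in Psmb10 and -9 in Psmd4. A match describes letters and is no evidence that a factor binds there.

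The first comparison asked what H/R with the empty vector did to these genes. The constitutive beta ring was higher, with 5 of its 7 genes rising, as were the immunoproteasome gene Psmb8, the ubiquitin receptor Psmd4, the inhibitor Psmf1 and the assembly chaperones Psmg3 and Psmg4. The large 19S scaffold subunits Psmd1 and Psmd2 and the ATPase Psmc5 fell. Of the 47 genes tested, 17 rose (36.2%), 3 fell (6.38%) and 27 did not pass an adjusted p of 0.05 (edgeR's quasi-likelihood test, Benjamini-Hochberg over all 11398 genes tested). Of all genes tested 31.8% rose and 31.8% fell, 63.6% in either direction, so a smaller share of the proteasome genes was called (42.6%). Among genes with a mean of at least 50 CPM the share was 16 of 38 proteasome genes (42.1%) against 67.5% of 4112 genes. Changes were small: 4 of the 47 were called with at least a 2-fold change (Psmb8, Psmd4, Psmg3 and Psmg4), against 22.5% of all genes. The median log2 fold change was 0.16, beside 0.01 over all genes, and 36 of 47 lay above 0 and 11 below, where 49.7% of all genes lay. In 15 genes every H/R library was above every control library and in 2 every one was below, beside 30.2% and 28.3% of all genes. With library totals in place of TMM the medians became 0.29 and 0.13, with 24 genes called higher and 2 lower. Of all 11398 genes that fit called 7444, of which 4395 were higher. Of the 9 proteasome genes whose estimated counts were whole in every control library but not in every H/R library, 4 rose and 1 fell. The 4 were Psmb6, Psmb7, Psmd11 and Psme3ip1, and the 1 was Psmc5. The part of the count estimation in their changes was not tested. Of the 36 whole in both groups 13 rose and 2 fell. Markers of cell state also moved with this comparison, and their part in it was not tested. The 7 myoblast markers summed to 1626 to 5951 CPM in control and 114 to 133 in H/R, with Myf5 at 0 in control, and the 8 heart muscle markers to 208 to 447 and 80.3 to 110.0. In control these sums were mostly Myog and Tnnt2. Of the 5 myoblast markers tested 3 fell and Des rose, by 1.81. Of the 3 heart muscle markers tested 2 fell and Nkx2-5 rose, by 1.27. The 5 fibroblast markers, mostly collagen, summed to 53000 to 70240 and 22430 to 25450 CPM, and the 4 endothelial markers to at most 0.612 CPM in either group.

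**Figure D1:**
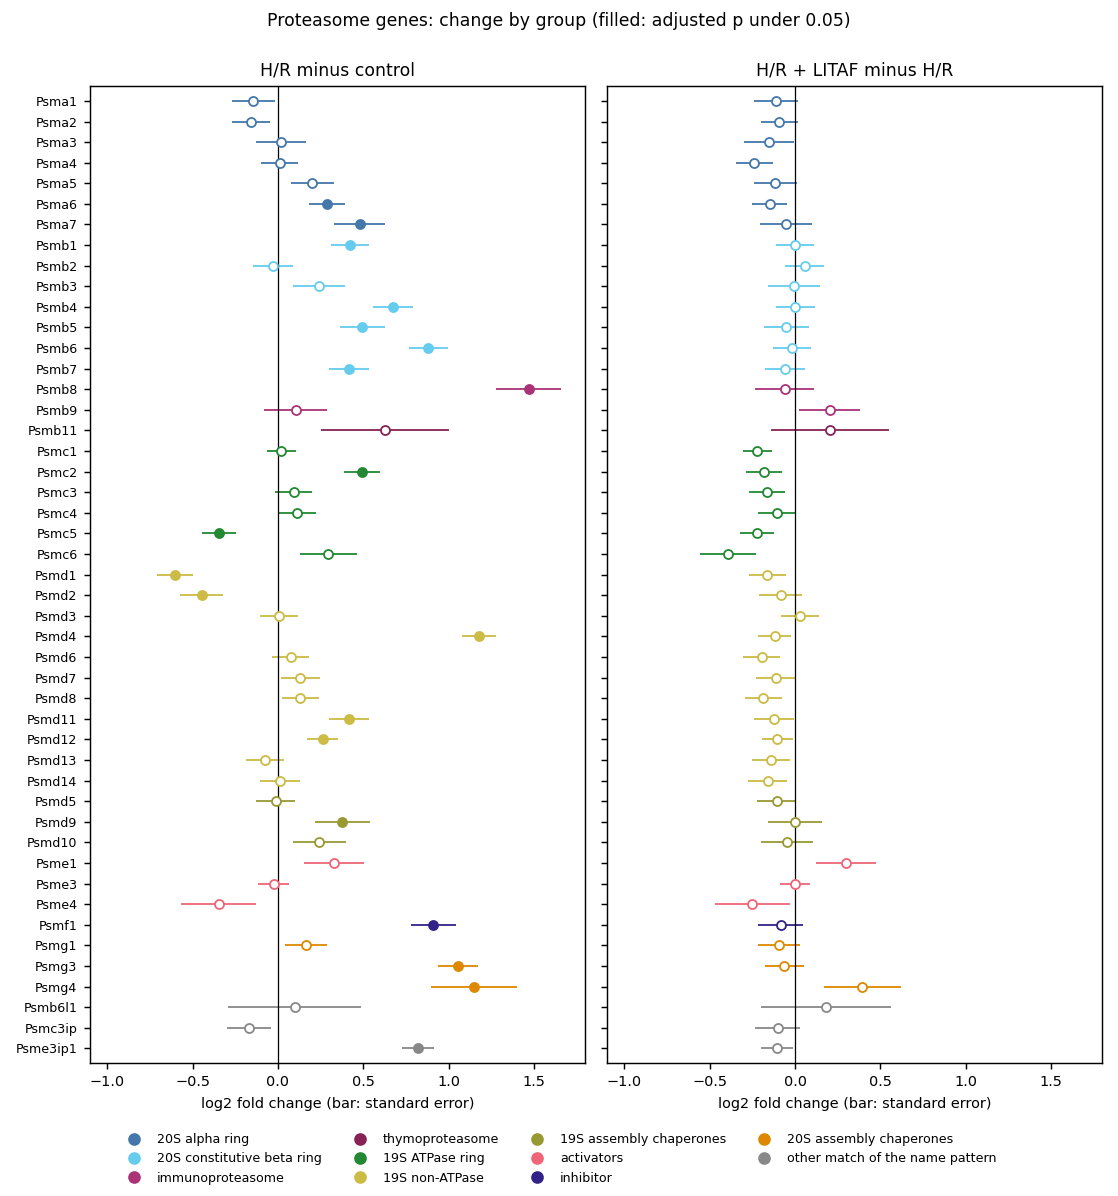
Log2 fold change (x axis) with its standard error (bar) of the 47 tested proteasome genes, coloured by subgroup, for H/R minus control (left) and H/R with LITAF minus H/R (right). Filled points passed an adjusted p of 0.05. On the left 17 filled points lie above 0 and 3 below. On the right no point is filled and 39 of 47 lie below 0.

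The alpha ring of the core moved little. Of its 7 tested genes 2 rose, Psma7 and Psma6, and the median log2 fold change was 0.02. Psma7 encodes an alpha subunit, and its CPM was 81.0, 144, 119 and 92.0 in control and 147, 155, 159 and 146 in H/R. All H/R libraries were above all control libraries, though control library 2 came close, and the change was 0.48 ± 0.15 (log2 ± SE, adjusted p = 0.0113). Psma6 was called with overlapping libraries, at 0.29 ± 0.10 (adjusted p = 0.0244), and this call was lost without control library 3 or 4 or H/R library 1, 2 or 3 (adjusted p = 0.0531 to 0.0687). The other 5 lay between -0.16 (Psma2) and 0.20 (Psma5). Averaged over the 7 genes, each relative to its control mean, the alpha ring stood at 0.843 to 1.12 in the control libraries and 0.992 to 1.11 in the H/R libraries, so the groups overlapped.

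The constitutive beta ring stood at 0.985 to 0.993 in control and 1.31 to 1.39 in H/R by the same average, with no overlap. Its median log2 fold change was 0.42, and it kept 5 or 6 called rises and no fall in every alternative fit at an adjusted p of 0.05. Psmb6 carries the caspase-like site and rose most. Its CPM was 53.9, 64.7, 52.8 and 62.2 in control and 113, 104, 111 and 103 in H/R. The groups were far apart, and the change was 0.88 ± 0.12 (adjusted p = 5.3e-06). Psmb5, the chymotrypsin-like subunit and the one that proteasome inhibitor drugs bind best, had 82.1, 93.7, 87.4 and 127 CPM in control. In H/R it had 136.5, 139.5, 138 and 135 CPM, a narrow cluster above all control libraries, of which library 4 was nearest. Its change was 0.49 ± 0.13 (adjusted p = 0.0038). Psmb7, the trypsin-like subunit, had 176, 175, 136 and 139.5 CPM in control. Its H/R values of 205, 210.0, 216 and 206 CPM were all higher, a change of 0.42 ± 0.12 (adjusted p = 0.0056). Of the subunits with no proteolytic site, Psmb4 rose by 0.67 ± 0.12 and Psmb1 by 0.42 ± 0.11 (adjusted p = 1.0e-04 and 0.0034). Psmb3 at 0.24 ± 0.15 (adjusted p = 0.182) and Psmb2 at -0.03 ± 0.12 did not pass. Whether the beta ring differed from the alpha ring was not tested.

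The immunoproteasome genes, at low levels in all libraries, did not move together. Psmb8, the replacement for Psmb5, had 1.32, 2.11, 2.16 and 1.83 CPM in control. In H/R it had 4.05, 5.93, 5.12 and 5.50 CPM, with no overlap. This was the largest rise of any proteasome gene, 1.47 ± 0.19 (adjusted p = 5.1e-06), and the LITAF libraries lay in the same range. Psmb9, the replacement for Psmb6, had 4.28, 4.78, 2.83 and 3.83 CPM in control and 4.58, 5.02, 3.47 and 3.81 in H/R. The groups overlapped fully, and the difference was 0.10 ± 0.18 (adjusted p = 0.639). Psmb10, the replacement for Psmb7, had 0.816, 0.834, 0.978 and 0.485 CPM in control by its first row and 0.714, 1.06, 0.875 and 0.647 by its second. In H/R both rows gave 1.01, 0.970, 1.01 and 0.617 CPM, so H/R library 4 was low and the groups overlapped. Its difference was 0.21 ± 0.28 with the first row kept (adjusted p = 0.525) and 0.14 ± 0.27 with the second (adjusted p = 0.671). The thymus form Psmb11 was at 0.333 to 0.432 CPM in control and 0.456 to 0.800 in H/R, a difference of 0.63 ± 0.38 that did not pass (adjusted p = 0.155).

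Blood cells hold much immunoproteasome, so their markers were read beside these genes. Summed over the 4 of 6 markers found, they came to 1.24 to 1.83 CPM in control, 1.49 to 2.47 in H/R and 2.07 to 2.40 in LITAF libraries. Ptprc, the pan-leukocyte marker, did not exceed 0.168 CPM in the control and H/R libraries. In bulk RNA, fewer cells of a type and less RNA per cell cannot be told apart.

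The count of each immunoproteasome gene was also set against its constitutive counterpart within a library, which removes scaling between libraries but not gene length, so the ratios are not ratios of molecules. Psmb8 counts per 100 Psmb5 counts were 1.65, 2.28, 2.50 and 1.47 in control and 2.98, 4.27, 3.74 and 4.10 in H/R. All H/R libraries were higher, by 0.96 on the log2 scale. Psmb9 counts per 100 Psmb6 counts were 7.98, 7.42, 5.41 and 6.19 in control and 4.08, 4.87, 3.15 and 3.73 in H/R. All H/R libraries were lower here, by -0.77 on the log2 scale. Psmb6 rose, as above, while Psmb9 did not pass. Both differences had the smallest p that 4 against 4 libraries allow (exact two-sided permutation test, p = 0.0286), which became 0.0643 after adjustment over 9 ratio tests. By its first row, Psmb10 counts per 100 Psmb7 counts were 0.477, 0.492, 0.740 and 0.367 in control and 0.506, 0.475, 0.482 and 0.314 in H/R. By its second row the control values were 0.419, 0.619, 0.664 and 0.483. The groups overlapped by either row, with a log2 difference of -0.20 by the first (exact permutation test, adjusted p = 0.514). No ratio passed after adjustment. Psmb6 and Psmb7, the lower terms of the Psmb9 and Psmb10 ratios, had whole counts in control but not in H/R. The part of this in the ratios was not tested.

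The 19S regulator held changes in both directions. Among its 17 ATPase and non-ATPase genes 4 rose and 3 fell, and the median log2 fold change was 0.09. Psmd4, a receptor that captures ubiquitin chains, had 68.7, 69.1, 58.9 and 68.1 CPM in control. In H/R it had 146, 146.5, 151 and 156 CPM, more than any control library by a wide margin, and the change was 1.18 ± 0.10 (adjusted p = 3.0e-08). Psmd1 and Psmd2 are the large scaffold subunits of the base, to which ubiquitin receptors and shuttles dock. Psmd1 had 466, 406, 528 and 553 CPM in control and 332.5, 326, 330.4 and 297 in H/R. Every H/R library was lower, a change of -0.60 ± 0.11 (adjusted p = 1.2e-04). Psmd2 had 796, 894, 823 and 561 CPM in control and 554, 569, 561 and 573 in H/R. Control library 4 lay inside the H/R range, and the other 3 lay above it, for a change of -0.45 ± 0.13 (adjusted p = 0.0056). Psmd11 and Psmd12, of the lid, were called higher at 0.41 ± 0.12 (adjusted p = 0.0057) and 0.26 ± 0.09 (adjusted p = 0.022), and the call of Psmd12 was lost without control library 1 or H/R library 1 or 2 (adjusted p = 0.0513 to 0.0682). The deubiquitinase Psmd14 was at 0.01 ± 0.12 and its partner Psmd7 at 0.13 ± 0.11, and neither passed.

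In the ATPase ring Psmc2 and Psmc5 were called in opposite directions. Psmc2 had 180.0, 199, 173 and 139 CPM in control and 236, 247.5, 244 and 244 in H/R. The H/R libraries were all higher, by 0.49 ± 0.11 (adjusted p = 6.9e-04). Psmc5 had 181, 191, 209 and 162 CPM in control and 142.5, 144, 150.0 and 148 in H/R. Its H/R libraries were all lower, by -0.35 ± 0.10 (adjusted p = 0.0061), and the call was lost with library totals (-0.22, adjusted p = 0.0592) or upper-quartile scaling (-0.23, adjusted p = 0.0728). Psmc1, Psmc3, Psmc4 and Psmc6 lay between 0.02 and 0.30 and did not pass.

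Among the other regulators the inhibitor Psmf1 rose, as did 3 of the 6 assembly factors tested. Psmf1, which binds the core and blocks it in vitro, had 14.2, 14.4, 18.7 and 13.4 CPM in control and 27.6, 29.3, 29.3 and 27.9 in H/R. The groups were well apart, and the change was 0.91 ± 0.13 (adjusted p = 1.7e-05). Psmg3 and Psmg4 form a chaperone pair that helps build the alpha ring. Psmg3 had 13.9, 14.9, 16 and 13.8 CPM in control and 28.4, 30.1, 33.6 and 29.4 in H/R, a change of 1.05 ± 0.12 with no overlap (adjusted p = 9.3e-07). Psmg4, at a low level, had 1.07, 1.39, 0.772 and 0.755 CPM in control and 2.29, 2.57, 2.03 and 1.96 in H/R, a change of 1.15 ± 0.25 with no overlap (adjusted p = 7.8e-04). Psmg1, of the other chaperone pair, was at 0.16 ± 0.12 and did not pass. Of the chaperones of the 19S base, Psmd9 was called at 0.38 ± 0.16 (adjusted p = 0.048), with 75.5, 46.4, 90.2 and 56.2 CPM in control and 87.7, 85.8, 83.9 and 91.3 in H/R. Control library 3 lay within the H/R values. The call was lost without control library 2 (0.24, adjusted p = 0.141) or 4 (adjusted p = 0.133), without any 1 of the 4 H/R libraries (adjusted p = 0.0655 to 0.0990), with DESeq2's size factors (adjusted p = 0.0569), in the fit of the 2 groups alone (adjusted p = 0.0632) and in DESeq2 (adjusted p = 0.0515). Psmd5 and Psmd10 did not pass. No activator passed: Psme1, a subunit of the interferon-inducible cap, was at 0.33 ± 0.18 (adjusted p = 0.114), the nuclear activator Psme3 at -0.03 ± 0.09 and Psme4 at -0.35 ± 0.22 (adjusted p = 0.177). Psme3ip1, which shares the prefix because its protein binds Psme3, rose from 43.4, 40.4, 37.8 and 39.5 to 68.9, 75.4, 70.8 and 69.5 CPM, by 0.82 ± 0.09 with no overlap (adjusted p = 1.4e-06).

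**Figure D2:**
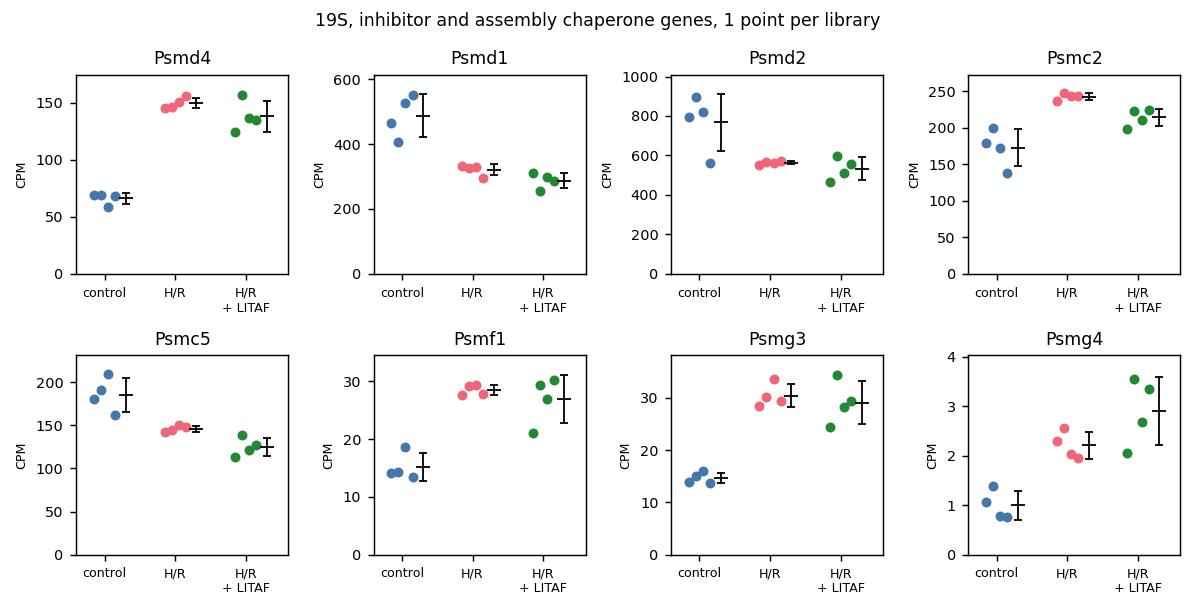
CPM (y axis, from 0) of the 19S genes Psmd4, Psmd1, Psmd2, Psmc2 and Psmc5, the inhibitor Psmf1 and the assembly chaperones Psmg3 and Psmg4, 1 point per library in replicate order, with mean and SD of 4 libraries. Psmd4, Psmc2, Psmf1, Psmg3 and Psmg4 are higher in every H/R library than in every control library, Psmd1 and Psmc5 are lower in every one, and 1 control library of Psmd2 lies among the H/R points.

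The comparison the series was made for sets LITAF against the empty vector, both after H/R. No proteasome gene passed the test: 0 of 47 rose and 0 fell, beside 3.73% and 1.15% of all genes tested, 4.88% in all. DESeq2 also called 0. By edgeR's quasi-likelihood test 4 genes had an unadjusted p under 0.05, all lower with LITAF, beside 2283 of all 11398 genes. DESeq2 also gave 4, beside 2392 of all its genes. The fit of these 8 libraries alone called Psma4 (adjusted p = 0.0495) and Psmc1 (adjusted p = 0.0428) lower. That fit called 1098 genes in all, 776 of them higher. All log2 fold changes lay between -0.39 (Psmc6) and 0.39 (Psmg4), and 39 of 47 were below 0, where 51.8% of all genes were. The median was -0.10, beside -0.01 over all genes. Markers of cell state moved in this comparison too, and their part in these values was not tested. With LITAF the 7 myoblast markers summed to 154 to 184 CPM against 114 to 133 in H/R, the 8 heart muscle markers to 163.5 to 221 against 80.3 to 110.0, and the 5 fibroblast markers to 26210 to 34250 against 22430 to 25450, with Dcn at 0 in all. The embryonic myosin Myh3 rose by 2.15, the acetylcholine receptor gene Chrna1 by 2.12 and the troponin gene Tnnt2 by 1.32. Chrna1 was near the floor, at most 0.267 CPM in H/R and 0.819 with LITAF. The other muscle markers tested, Myod1, Myog, Des, Gata4 and Nkx2-5, did not pass, at -0.11 (Gata4) to 1.19 (Myog).

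Values below 0 were found in most subgroups, and differences between subgroups were not tested. All 6 ATPase genes were below 0 (median -0.20), as were 7 of 7 alpha genes (median -0.12) and 10 of 11 non-ATPase genes (median -0.12). The constitutive beta ring had a median of -0.01 and 5 of 7 genes below 0. The 3 chaperones of the 19S base were also counted below 0, but Psmd9 among them was at -0.00 ± 0.16 and changed sign in other fits. Psmc1 had 226.5, 238, 224 and 236 CPM in H/R and 185, 204.5, 200 and 204 with LITAF. All LITAF libraries were lower, by -0.22 ± 0.08 (adjusted p = 0.149). Psmc5 had 113.5, 138.5, 121 and 127.5 CPM with LITAF, all below the H/R libraries, at -0.22 ± 0.10 (adjusted p = 0.219). Psmc6 had 177, 176, 174 and 156 CPM in H/R and 158, 93.3, 150.3 and 119 with LITAF. LITAF libraries 2 and 4 were far below the H/R range and library 1 within it, for -0.39 ± 0.17 (adjusted p = 0.198). In 5 genes every LITAF library was below every H/R library (Psmc1, Psmc2, Psmc5, Psma4 and Psmd6), and in none was every one above, where 8.3% and 10.6% of all genes did so.

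No catalytic gene of either kind passed the test with LITAF. Psmb6 had 87.2, 123, 101 and 113 CPM with LITAF, on both sides of the H/R values, a difference of -0.02 ± 0.11. Psmb5 had 111, 150.4, 125.5 and 143 CPM (-0.05 ± 0.13) and Psmb7 166, 233.5, 197 and 207 (-0.06 ± 0.12). In each of the 3 LITAF library 1 was the lowest and library 2 the highest of all 8 libraries. Psmb8 had 4.09, 5.52, 5.43 and 4.67 CPM, a difference of -0.06 ± 0.17. Psmb9 had 4.04, 4.86, 5.43 and 5.07 CPM, a difference of 0.20 ± 0.18 (adjusted p = 0.575). Psmb10 had 0.568, 0.710, 0.807 and 0.633 CPM, a difference of -0.41 ± 0.29 with its first row kept (adjusted p = 0.464). The ratio of Psmb8 to Psmb5 differed by 0.00 on the log2 scale, that of Psmb9 to Psmb6 by 0.24 and that of Psmb10 to Psmb7 by -0.31 (exact permutation tests, adjusted p = 1, 0.294 and 0.294).

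The LITAF libraries differed among themselves by more than the H/R libraries did. For the 38 genes with a mean of at least 50 CPM, the median coefficient of variation was 14.9% in control, 4.17% in H/R and 9.41% with LITAF, beside 14.6, 5.20 and 9.71% over all 4112 genes at that level. LITAF library 1 was the lowest of its group in 34 of the 47 genes, beside 39.5% of all genes, and library 2 the highest in 29, beside 34.9%. Relative to the H/R mean, the median log2 level over the 44 tested genes of the proteasome proper was -0.24 in LITAF library 1, 0.02 in library 2, -0.11 in library 3 and -0.05 in library 4. It was -0.05 to 0.04 in the H/R libraries. Without LITAF library 1 the number of genes below 0 fell from 39 to 28 of 47 and the median rose to -0.04. Leaving out any other library left 34 to 41 genes below 0. The activator Psme4 spread most, at 156, 60.0, 115 and 79.0 CPM with LITAF against 131, 121, 135 and 102 in H/R (-0.25 ± 0.22, adjusted p = 0.564). LITAF library 1 was above the H/R range for Psme4, and libraries 2 and 4 were below it, the opposite of the order in the beta ring genes.

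**Figure D3:**
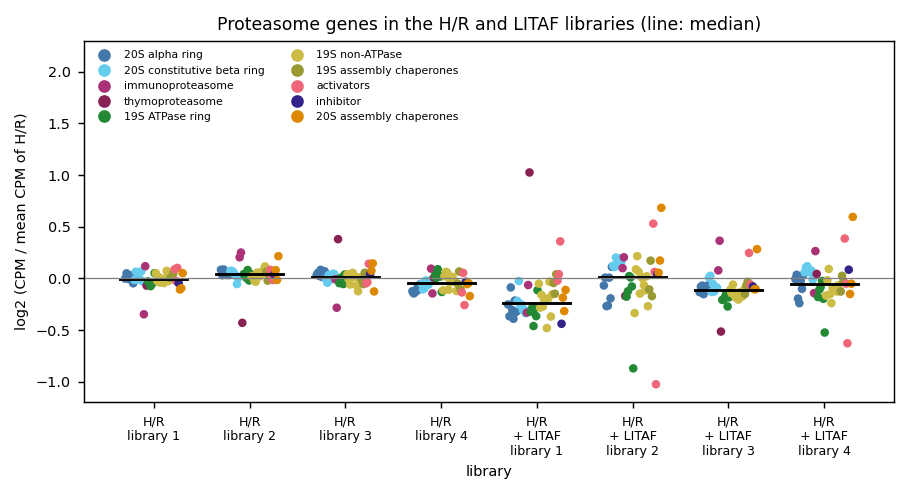
Log2 of each library's CPM over the mean CPM of the H/R group (y axis) for the 44 tested proteasome genes without Psmb6l1, Psmc3ip and Psme3ip1, 1 point per gene coloured by subgroup, in the 4 H/R and 4 LITAF libraries (x axis). Black lines are medians. The median of LITAF library 1 is -0.24 and those of the other LITAF libraries lie between -0.11 and 0.02.

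LITAF with H/R was also compared with control, a comparison that shares its libraries with both others. Here 16 of 47 genes rose, 5 fell and 26 did not pass, beside 32.0% of all genes rising and 32.6% falling (64.6% called). Without control library 4 the number that fell rose to 12, of which 4 were alpha ring genes. That fit called 7271 genes in all, 3607 of them higher. The median was 0.08. Psmb8 stood at 1.41 ± 0.19 above control, Psmd4 at 1.06 ± 0.10, Psmg4 at 1.54 ± 0.24 and Psmb6 at 0.86 ± 0.12, each with an adjusted p of 4.0e-05 or less. Psmd1 was lower by -0.76 ± 0.11, Psmc5 by -0.57 ± 0.10 and Psmd2 by -0.53 ± 0.13. Psme1 and Psme4 were called here and not in H/R, though their difference between LITAF and H/R did not pass. Psme1 had 60.8, 69.4, 40.5 and 36.7 CPM in control, 69.2, 68.9, 63.0 and 59.2 in H/R and 64.1, 93.9, 77.2 and 85.0 with LITAF. LITAF libraries 2, 3 and 4 were above every control library and library 1 within their range, a change of 0.63 ± 0.18 (adjusted p = 0.0053). Psme4 was lower by -0.60 ± 0.22 (adjusted p = 0.0254), a call lost with library totals (adjusted p = 0.0557) and without control library 1 or 3 or LITAF library 2 or 4 (adjusted p = 0.0503 to 0.0862). Psmc1 was lower by -0.20 ± 0.08 (adjusted p = 0.0459), a call lost with the replicate block (adjusted p = 0.0619), with library totals (-0.12), with upper-quartile scaling (-0.10), without the filter, in the fit of the 2 groups alone and without control library 1 or 3 or LITAF library 1, 3 or 4 (adjusted p up to 0.377 in these fits).

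**Figure D4:**
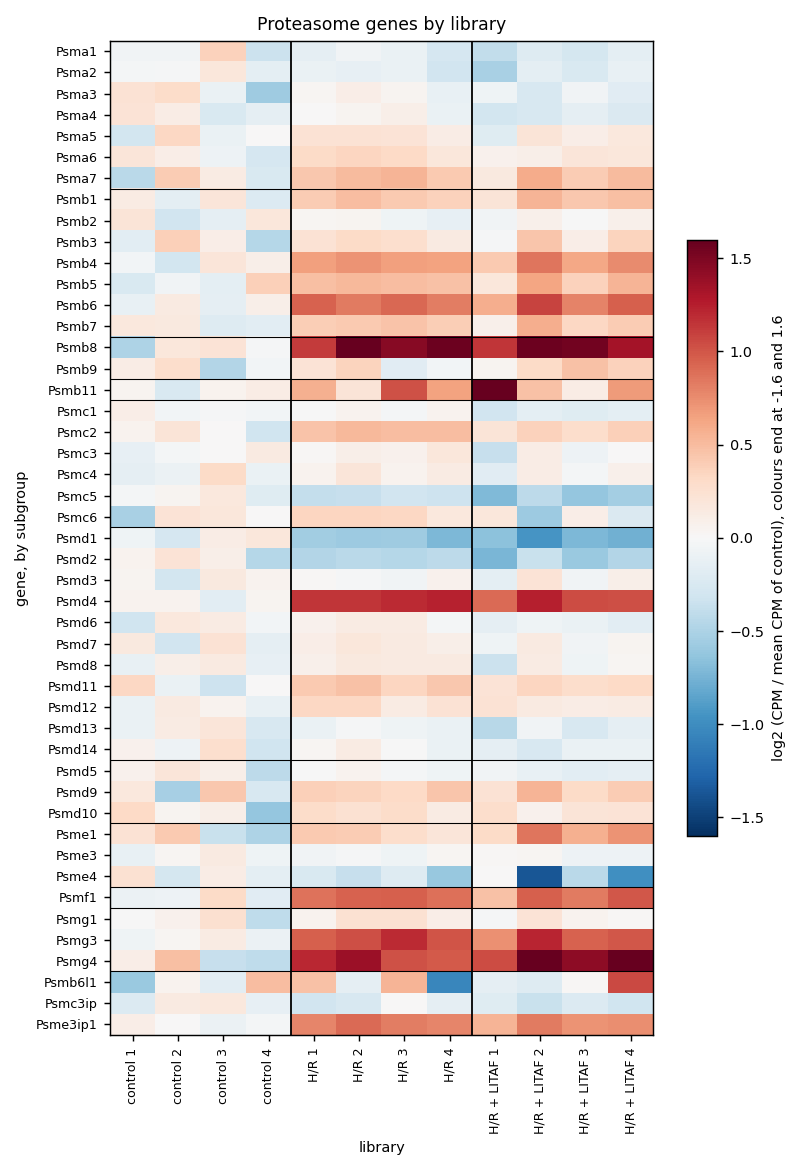
Log2 of CPM over the control mean (colour, ending at -1.6 and 1.6) for the 47 tested genes (rows, by subgroup) in the 12 libraries (columns). Psmb8, Psmd4, Psmb6, Psmf1, Psmg3, Psmg4 and Psme3ip1 are red in all 8 H/R and LITAF libraries, and Psmd1 and Psmc5 are blue in all 8.

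The promoters were searched for the elements of 4 regulators, on both strands, from 250 bases before to 50 after the start. Of the 49 genes 44 had a RefSeq promoter, and Psma7, Psmb11, Psmd6, Psmd12 and Psmd14 had no entry. The antioxidant response element TGACNNNGC was present in 8 of 44 (18.2%), beside 12.2% of 27455 rat promoters: Psma3, Psmb2, Psmb5, Psmb6, Psmd1, Psmd3, Psmd9 and Psme4. It was in 3 of the 15 genes that rose in H/R and had a promoter, and in 5 of the other 27 tested. The interferon-stimulated element was present in 6 (13.6%, beside 3.77%): Psma4, Psmb3, Psmb8, Psmb10, Psmd7 and Psmg4. It was in 2 of the 15 that rose and 3 of the other 27. In the 250 bases upstream alone it was present in 4 (9.09%, beside 3.29%), without Psmb8 and Psmg4, and in 0 of the 15 that rose. CCAAT was in 23 (52.3%, beside 37.7%), in 8 of the 15 that rose and 15 of the other 27, and the heat shock element, GAA, TTC and GAA with any 2 bases between each, was in 0 (beside 0.736%). In Psmb2 alone did matches of different elements overlap, by the last base of CCAAT.

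Genes that act with the proteasome but fall outside the naming rule were read from 5 lists. Of 10 partners of the particle 5 rose in H/R and 1 fell (60.0% called, beside 63.6% of all genes). The ubiquitin receptor Adrm1 rose by 0.54 ± 0.10, from 115, 109, 103 and 100 CPM to 156, 151, 145 and 171, and Akirin2, which brings proteasomes into the nucleus, by 0.83. Txnl1, Sem1 and Zfand5 rose as well, by 0.76, 0.48 and 0.33. The ligase Ube3c was lower, at -0.77, and the core maturation factor Pomp was at 0.00. With LITAF against H/R 0 of the 10 passed in edgeR, beside 4.88% of all genes, and 0 in DESeq2. In each tool 2 had an unadjusted p under 0.05, beside 2283 of all 11398 genes in edgeR. The log2 fold changes of the 10 ran from -0.62 to 0.04.

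A list of NRF1, its relative NRF2, their partners and inhibitors and the ER and cytosolic factors that process NRF1 had 6 of 11 genes rising in H/R and 0 falling (54.5% called, beside 63.6% of all genes). These were the ER degradation genes Sel1l (1.90) and Syvn1 (1.64), the small Maf partners Maff (1.84) and Mafk (1.53), the NRF2 inhibitor Keap1 (0.91) and the protease Ddi2 (0.67) that cuts NRF1. Nfe2l1 itself had 197, 276, 315 and 326 CPM in control and 277, 285, 287 and 334 in H/R, overlapping and at 0.09 ± 0.13 (adjusted p = 0.58). With LITAF against H/R 2 of the 11 rose, and 3 in DESeq2, beside 3.73% of all genes. By edgeR these were Maff by 0.49 ± 0.10 (adjusted p = 0.0086) and the repressor Bach1 by 0.62 ± 0.15 (adjusted p = 0.021).

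Of 4 ubiquitin genes and activating enzymes 2 rose in H/R and 1 fell (75.0% called, beside 63.6% of all genes). Ubb, a polyubiquitin gene, had 599.9, 461, 395 and 543 CPM in control and 1388, 1399, 1345 and 1493 in H/R. All H/R libraries were above all control libraries. Ubb rose by 1.49 ± 0.12 (adjusted p = 2.4e-08) and Rps27a, which encodes ubiquitin fused to a ribosomal protein, by 1.07, while the activating enzyme Uba1 was lower at -0.48. With LITAF against H/R 0 of the 4 passed in edgeR, beside 4.88% of all genes, and 0 in DESeq2. None had an unadjusted p under 0.05, beside 2283 of all 11398 genes in edgeR. Ubiquitin genes carry near-identical coding sequence, so how reads were split among them is uncertain. Of 12 shuttle and segregase factors 5 rose in H/R and 1 fell (50% called, beside 63.6%). Zfand2a, an arsenite- and heat-inducible proteasome-binding protein, rose by 3.76 ± 0.14 in H/R and by a further 0.57 ± 0.12 with LITAF (adjusted p = 0.0144). That was the 1 call among these 12 with LITAF against H/R, beside 4.88% of all genes.

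Of 12 genes of MHC class I processing and its interferon control 7 rose and 4 fell in H/R (91.7% called, beside 63.6%). With LITAF against H/R 0 passed in edgeR, beside 4.88% of all genes, and 0 in DESeq2. An unadjusted p under 0.05 was found for 0 in edgeR, beside 2283 of all 11398 genes, and for 1 in DESeq2. The peptide transporter Tap2 rose by 1.53 and Tap1 by 0.49, and the light chain B2m by 0.67. The transactivator Nlrc5 was lower at -2.44 ± 0.48, and Irf1, which is known to drive the immunoproteasome genes after interferon, at -0.73. Nlrc5 was near the floor, at 0.72 to 2.21 CPM in control and 0.114 to 0.449 in H/R. The lists of partners and pathways were described by these counts alone and were not tested against other genes.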

How the data were processed

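RNA of 12 H9C2 libraries was sequenced after enrichment for polyadenylated RNA, per the labels' protocols. The authors deposited estimated counts per gene with Ensembl rat IDs, not normalized per the file headers, and whole for most but not all genes, so they were rounded to whole numbers. The submitters' processing notes name DESeq2 and edgeR. The aligner, quantifier, strand setting and genome build were not given in the sources used here. Of 16204 rows, 258 shared a gene ID. Identical repeats were kept once, and 72 IDs whose rows differed, all of them in the control columns alone, were left out, which left 16002 IDs.

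After filterByExpr (minimum count 10) 11398 genes were fitted in all 12 libraries with TMM scaling and edgeR 4.0.16 (glmQLFit, robust, glmQLFTest; limma 3.58.1, R 4.3.3). Tests were two-sided and adjusted by Benjamini-Hochberg over all genes, with a threshold of 0.05. Each SE was derived from the test, as the absolute log2 fold change over the square root of its F statistic. The 3 comparisons share libraries with each other. Count ratios took a pseudocount of 0.5 and an exact permutation test in scipy 1.17.1. The script was tested on simulated data. With depths of 16.9 to 20.7 M counts, counting error is largest for the genes near 1 CPM (Psmb6l1, Psmb10, Psmb11, Psmg4).

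Same-numbered control and H/R libraries deviated together (correlations over genes of 0.30 to 0.57), so those numbers were taken to pair the libraries. Those of LITAF with H/R libraries (0.054 to 0.20) and with control libraries (0.049 to 0.10) were not over 0.1 in every pair, so there they were not. The pairing comes from this check, since the labels give replicate numbers and 1 batch. No main test used it: the main fit had no replicate block, and the ratio tests were unpaired. Alternatives were other scalings, no filter, fits of 2 groups, a replicate block, DESeq2 1.42.0, a threshold of 0.01, either row of repeated IDs and leaving out each library. Keeping the second row of a repeated ID was chosen after seeing the data.

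The members and lists were chosen with earlier results of these data known. Values in every library are given for the catalytic genes of both kinds, for the largest called rise and fall of each subgroup in H/R against control, for genes called against most of their subgroup, and for the 3 with the smallest p in LITAF against H/R. The rule named 18 genes. Values of Psmg3, Psme1 and Psme4 in every library were added after they were seen, as were those of Adrm1, Nfe2l1 and Ubb. A few genes of the related and marker lists are not reported here and are in none of the list counts.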

Additional observations from a re-analysis of the deposited data

Results flagged for a closer look

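In a group of 4 libraries, 1 library stood apart from the other 3 in 4 of 63 groups of values checked, by Dixon's criterion, which chance alone meets in about 1 of 20. H/R library 4 was low for Psmb10, at 0.617 CPM where the others were at 0.970 to 1.01, and so was its log2 ratio of Psmb10 to Psmb7, at -8.32 where the others were at -7.72 to -7.63. The same library was low for the ATPase Psmc6, at 155.8 CPM where the others were at 174 to 177. Control library 3 was low for the ubiquitin receptor Psmd4, at 58.9 CPM where the others were at 68.1 to 69.1.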

How the results depend on the processing

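In H/R against control 17 genes rose and 3 fell, with and without the replicate block, 14 to 19 rose and 3 fell when 1 library was left out, and 13 rose and 3 fell at an adjusted p under 0.01. In LITAF against H/R 0 rose in every fit, and 0 fell except in the fit of these 8 libraries alone, where 2 fell. In LITAF against control 5 fell, 4 with the replicate block, 3 with library totals and 3 at an adjusted p under 0.01. With 1 library left out 4 to 12 fell, the 12 without control library 4. The fit with those 12 called 7271 genes in all, 3607 of them higher. The block ended no member's call but that of Psmc1 in LITAF against control.

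Differences near 0 changed sign, and the cause was not tested. In LITAF against H/R, with 1 library left out, Psma7 ran from -0.1209 to 0.0477, Psmb5 from -0.1258 to 0.0469, Psmb6 from -0.1049 to 0.0874, Psmb7 from -0.1474 to 0.0447, Psmd9 from -0.0700 to 0.0677, Psmb8 from -0.1623 to 0.0376 and Psmf1 from -0.1456 to 0.0372. In each the highest value was the one without LITAF library 1. Psmd9 (-0.00) was at 0.0093 with DESeq2 size factors, 0.0111 without the filter, 0.0009 in the fit of 2 groups, 0.0038 with the replicate block, 0.0003 and 0.0004 with either row of repeated IDs, and 0.0074 in DESeq2. With 1 library left out, Psmb9 in H/R against control ran from -0.0247 to 0.2121, Psmc6 in LITAF against control from -0.2359 to 0.0232, and the log2 ratio of Psmb8 to Psmb5 in LITAF against H/R from -0.107 to 0.0655. With the replicate block no ratio could pass, since 4 pairs allow no p under 0.125 (exact sign-flip test).

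Psmb6l1, Psmb10, Psmb11 and Psmg4 rest on the fewest counts, apart from the untested Psma8, so counting error is largest there. The vector, H/R and the share of values that are not whole cannot be told apart in the comparisons with control.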
